A study of Mus musculus with 12 samples.

Results

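Resting splenic B cells that carried floxed Ebf1 on both alleles (fl/fl) were compared with resting B cells that carried it on 1 allele (+/fl). The 6 arrays of resting cells, 3 per genotype, were taken from the 12 arrays of the series by their labels. The other 6 arrays hold B cells of the same genotypes after LPS, a bacterial product that activates B cells, with no dose or time given. All mice were C57BL/6 and carried an inducible Cre, RERTCre, so the test genotype was Ebf1fl/flRERTCre and the control Ebf1+/flRERTCre. Every animal, controls included, received tamoxifen citrate at 3 mg on 4 consecutive days and was killed on day 10. The control is thus a tamoxifen-treated heterozygote with 1 floxed allele, not a wild-type animal, and the extent of deletion was not measured. The sources used here give neither the age of the mice nor the cells in which RERTCre acts. B cells were sorted from spleen as B220+AA4.1- or as B220+AA4.1-CD21lo cells, and the labels do not say which samples went through which gate. Because Cr2 encodes CD21, a CD21lo gate can by itself lower Cr2 and other genes of CD21-high marginal zone cells. The labels speak of triplicates without tying each to an animal, so each p value rests on sample-to-sample spread that could be purely technical.

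Ebf1 is a transcription factor that, with Pax5 and E2A, switches on the genes of the B lineage in precursors and holds them on in mature cells. Resting B cells of the spleen are mostly follicular cells, which recirculate, and marginal zone cells, which stay at the edge of the follicle, carry much CD21 and depend on Notch2 signals. Both rest outside the cell cycle until antigen or a microbial product reaches them.

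RNA was measured on single-colour Agilent arrays, and a level is given as the log2 signal minus that of the array's 75th percentile. On the 6 resting arrays 54.6% to 57.4% of spots were well above background. One array of LPS-treated fl/fl cells stood apart at 83.2%, and it enters the resting comparison through the shared estimate of the spread and the choice of probes tested. Each of 3 slides held 1 resting array of each genotype. A principal component analysis of these 6 arrays put 43.2% of the variance on its first axis. Numbers in the sample names form a range of their own for the resting fl/fl arrays, and no source used here says what they stand for. The sorted cells carried B cell RNA: all 12 B cell markers were above background on all 6 arrays, and the log2 summed level of the list ran from 10.6 to 10.9 in both genotypes. Detection on all 6 arrays is no measure of purity. It held for 13970 of the 17128 tested genes and for all 20 tested markers of macrophages, monocytes and neutrophils. Cd93, which encodes the AA4.1 antigen of immature B cells, was above background on all 6 arrays as well and did not pass the test (adjusted p 0.152).

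The targeted gene is read by 2 probes, which moved in opposite directions. Both lie on the forward strand of chromosome 11 in the mm7 build, 355750 bases apart. The first 30 of the 60 bases of each show that they are different stretches of the locus, and no annotation of that build was used here to place them in an exon or intron.
Ebf1 probe for NM_007897, chr11:44961616-44961675: caataactgcagatttttaaacaaaatcac
Ebf1 probe for AK036716, chr11:44605869-44605928: acaataagctaatagcagtctagattccat
At the NM_007897 probe the fl/fl arrays read 1.81, 1.68 and 1.71 and the +/fl arrays 0.75, 1.40 and 1.18. All 3 fl/fl arrays lay above all 3 +/fl arrays, so the fl/fl genotype had more signal here and not less. The difference was 0.62 on the log2 scale (standard error 0.15, limma adjusted p 0.0382 over all probes, n = 3 and 3). At the AK036716 probe the fl/fl arrays read −4.21, −4.24 and −5.01 against −2.44, −2.18 and −3.16, again with no overlap. Here fl/fl cells were lower by a log2 difference of −1.90 (standard error 0.49, adjusted p 0.0432). An exact two-sided permutation test of the 6 arrays gave 0.1 at each probe, the smallest p that 3 against 3 can give. Both calls were close to the threshold. Without resting +/fl replicate 1 the differences were 0.44 and −1.82 (limma adjusted p 0.0721 and 0.108), and without replicate 3 they were 0.66 and −2.18 (limma adjusted p 0.0738 and 0.0612). No source used here says which stretch of the allele is deleted, so deletion cannot be read from these probes.

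**Figure D1:**
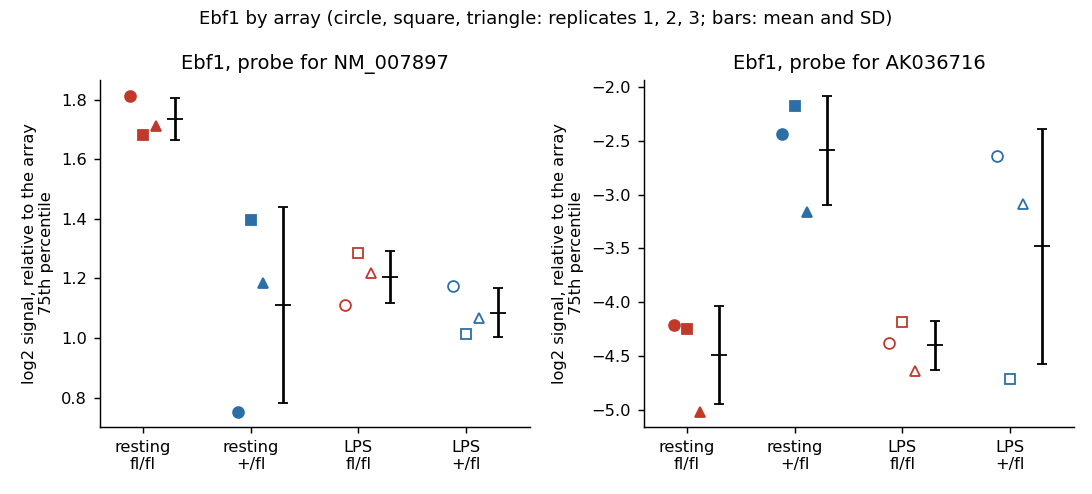
Log2 signal minus that of the array's 75th percentile at the 2 Ebf1 probes, with 1 point per array, filled for resting and open for LPS cells, and bars for the mean and standard deviation of 3 arrays. Resting fl/fl arrays sit at 1.68 to 1.81 at the NM_007897 probe, above the +/fl arrays, and at −5.01 to −4.21 at the AK036716 probe, below them.

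Among all 17128 genes tested, 1509 or 8.81% passed an adjusted p of 0.05, with 794 (4.64%) higher and 715 (4.17%) lower in fl/fl cells. Most differences were small, with a median size of 0.76 and quartiles of 0.56 and 1.10 on the log2 scale. Falls outnumbered rises among the larger ones: of 461 genes that differed at least 2-fold 316 were lower, of 111 at least 4-fold 88 were lower, and of 21 at least 8-fold 15 were lower. The values of the 2 genotypes did not overlap at 5347 genes, 31.2% of those tested. Scaling each array by its median in place of its 75th percentile left 281 calls, 56 of them higher, while the median shift of a called gene was 0.03 on the log2 scale. LPS fl/fl replicate 2, which enters the shared estimate of the spread, had a median signal of 93.0, against 32.1 and 34.2 on the others of its group. Its 75th percentile was 725 against 580 and 597. The part of this array in the loss of calls with median scaling was not tested. Quantile normalization gave 762 higher and 775 lower, and the deposited values 730 and 783. After LPS 1.7% of genes passed in the same genotype comparison, and 87 of the 1509 resting calls were among them. A difference between the resting and the LPS genotype effect passed at 0.175% of genes, 30 in all.

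**Figure D2:**
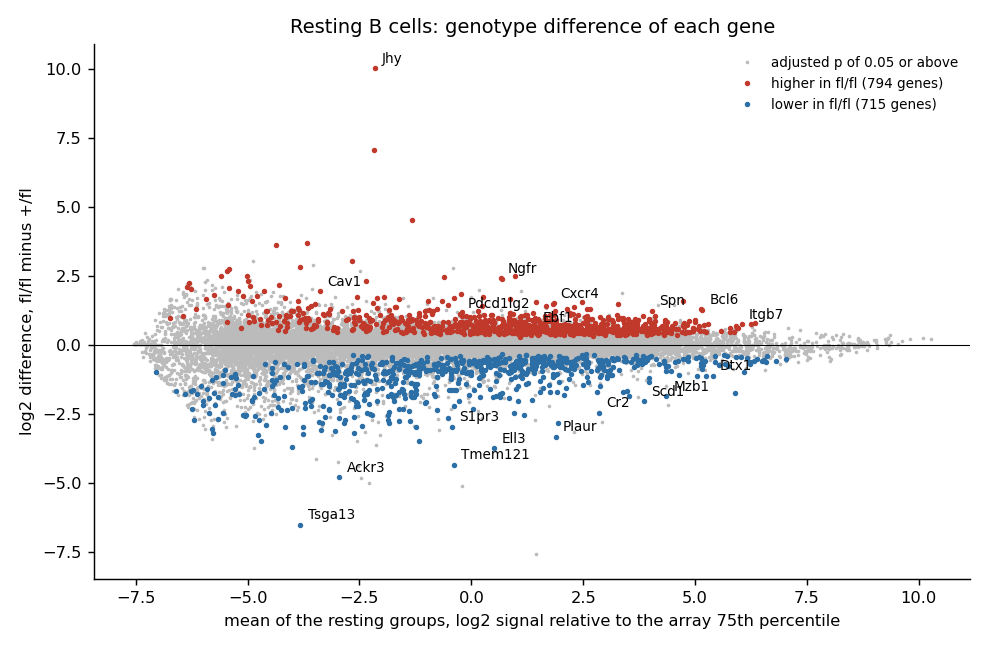
Log2 difference of each gene (fl/fl minus +/fl, resting cells) against its mean level over both genotypes, with 1 point per gene, red for the 794 genes higher and blue for the 715 lower at an adjusted p under 0.05. Jhy lies far above 0, and Tsga13, Ackr3, Tmem121 and Ell3 far below it.

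Cr2, S1pr3 and Ell3 fell clearly in fl/fl cells, and their arrays were tight. Cr2, the complement receptor CD21, read 1.72, 1.59 and 1.54 on the fl/fl arrays and 4.18, 3.95 and 4.11 on the controls, a 5.51-fold fall (log2 −2.46, standard error 0.12, adjusted p 2.63e-05). The lowest +/fl array was above the highest fl/fl array by more than the whole range within either genotype. S1pr3, a receptor for sphingosine 1-phosphate on marginal zone cells, read −2.03, −1.92 and −1.76 against 1.05, 0.91 and 1.21 (7.78-fold lower, adjusted p 0.000117). After LPS S1pr3 did not pass (log2 −0.35, adjusted p 0.304), and its resting and LPS differences were unequal (interaction adjusted p 0.00735). Ell3, a B cell relative of the elongation factor ELL, read −1.34, −1.19 and −1.55 against 2.53, 2.53 and 2.12 (13.5-fold lower, adjusted p 0.00118). Ell3 stayed lower after LPS (log2 −3.11, adjusted p 0.00976). No other member of its list of 13 ELL factors and partners fell, and the scaffold Aff4 rose (log2 0.82, adjusted p 0.0134).

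The other large falls joined surface, signalling and structural genes. Tmem121, a membrane protein, read −2.81, −2.75 and −2.12 on the fl/fl arrays against 2.34, 0.50 and 2.50 on the controls (20.2-fold lower, adjusted p 0.004). All fl/fl arrays were below all +/fl arrays, though +/fl replicate 2 lay well below the other two. Plaur, the urokinase receptor, read 0.32, −0.43 and 0.79 against 3.37, 3.73 and 3.56 (10.02-fold lower, adjusted p 0.000713), and a second Plaur probe gave −3.27. In LPS cells Plaur did not differ past the test (0.22, adjusted p 0.671, interaction adjusted p 0.0115). Nebl, which encodes an actin-binding protein, fell 6.89-fold (−4.59, −4.89 and −4.90 against −2.05, −2.22 and −1.74), though its other probe, above background on no fl/fl and 2 +/fl arrays, did not pass (−1.44, adjusted p 0.179). Atf3, a stress-induced transcription factor, fell 7.63-fold, but its +/fl arrays spread from −2.52 to 0.37. Tmem87a, a membrane protein of the Golgi, fell 7.13-fold with tight arrays in both genotypes. Pbk and Sapcd2, both linked to mitosis, fell 7.22-fold and 6.85-fold, and in both +/fl replicate 2 was the lowest control array. Trim34a, a member of the TRIM family, fell 7.17-fold at the probe used, where fl/fl replicate 1 at 2.43 was near the controls (3.09 to 3.49) and the other two were at −0.56 and −0.33. The other 2 Trim34a probes gave smaller falls, of −1.04 and −1.07 on the log2 scale. At Trim30b, named after its values were seen, fl/fl replicate 1 was likewise nearest the controls (1.02, −4.33 and −4.97 against 2.20, 2.51 and 2.35). Trim30b did not pass (limma adjusted p 0.113).

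The rises included membrane receptors and enzymes. Ngfr, the p75 neurotrophin receptor, read 2.05, 1.81 and 1.72 on the fl/fl arrays and −1.99, 0.44 and −0.09 on the controls (5.30-fold higher, adjusted p 0.0223). The controls were spread, with +/fl replicate 1 the lowest, but no control reached the fl/fl range. A second Ngfr probe, above background on 2 of 3 controls, did not pass (log2 1.18, adjusted p 0.201). Psd3, an exchange factor for ARF GTPases, rose 5.27-fold. Of its 4 probes, 2 were above background on all 6 arrays, with log2 differences of 2.40 and 2.57 (adjusted p over probes 0.00446 and 0.0900). The other 2, with 0 and 2 of 3 controls above background, passed the test. Cav1, the main protein of caveolae, rose 3.86-fold (−2.53, −2.33 and −2.34 against −4.20, −4.28 and −4.57). Nt5e, the ectonucleotidase CD73, rose 3.35-fold, and Ptprk, a receptor tyrosine phosphatase, 3.25-fold. Lrrc23, a leucine-rich repeat protein, rose 5.53-fold with no difference past the test after LPS (interaction adjusted p 0.0433). Zfp69, a zinc finger protein, rose 5.67-fold, and the protease Prss12 3.30-fold, in each case with controls spread over more than 1 log2 unit. Transcripts without a described role were also among the 12 largest rises, 1810046K07Rik (8.28-fold), B230208H11Rik (4.92-fold) and BG294923 (3.33-fold).

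A few genes were above background in 1 genotype and not in the other, so the fold is a lower bound. Jhy, known from ciliated cells, read 2.84, 2.72 and 2.98 on the fl/fl arrays and −7.58, −7.16 and −6.76 on the controls, where no array was above background (at least 271-fold higher, adjusted p 0.00029). Its other probe was likewise above background on 3 fl/fl and 0 +/fl arrays. The kallikrein Klk1b21 rose at least 9.95-fold, but its fl/fl arrays ran from −3.79 to 0.25. Zfp30 rose at least 6.38-fold and the transcription factor Nfib at least 2.27-fold. In the other direction Tsga13, a testis gene, was above background on no fl/fl array (−6.96, −7.16 and −7.11) and on all +/fl arrays (−0.28, −0.81 and −0.60), at least 25.1-fold lower. Ackr3, which takes up the chemokine CXCL12 without signalling through G proteins, read −4.62, −5.16 and −6.26 against −0.80, 0.09 and −0.94, at least 21.7-fold lower (adjusted p 0.00617). Ackr3 was lower after LPS as well (log2 −5.90, adjusted p 0.00917). The mitotic motor Kif18b, Aunip, a partner of Aurora A kinase, and the myeloid receptor Trem3 fell by at least 4.22-fold, 7.09-fold and 2.04-fold. In all, 39 genes were above background on 3 of 3 fl/fl and 0 of 3 +/fl arrays, 15 of them called, and 61 genes showed the reverse, 24 of them called.

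**Figure D3:**
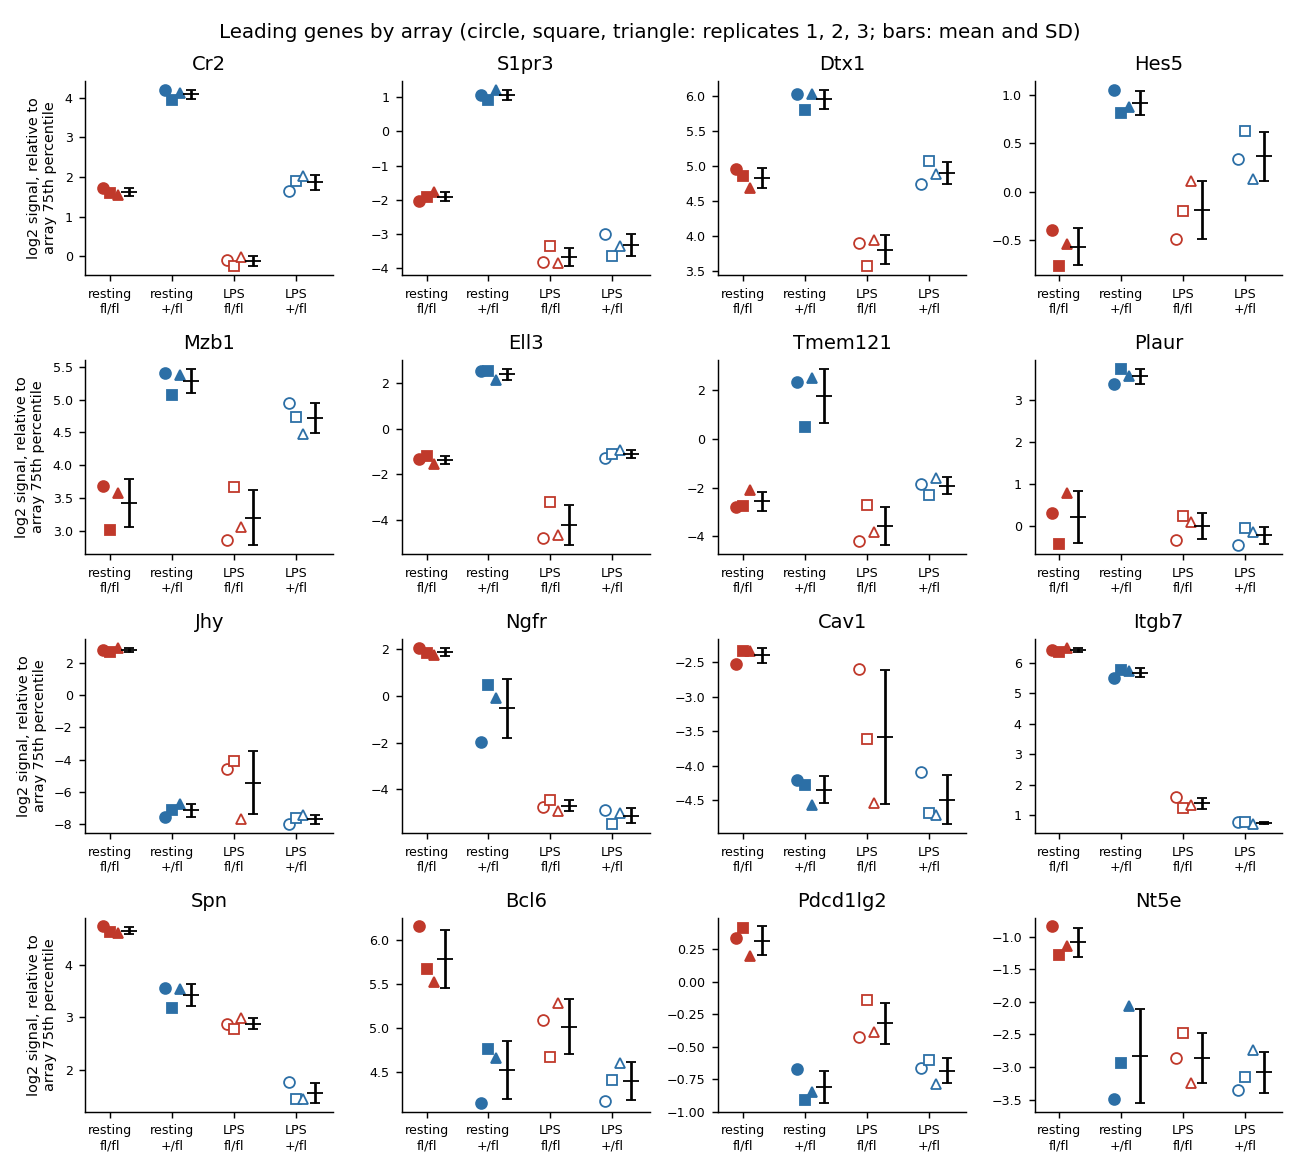
Log2 signal minus that of the array's 75th percentile of 16 genes in the 4 groups, with 1 point per array, filled for resting and open for LPS cells, and bars for the mean and standard deviation. Cr2 at 1.54 to 1.72 against 3.95 to 4.18 and Jhy at 2.72 to 2.98 against −7.58 to −6.76 show resting groups that lie far apart, while the LPS differences of S1pr3 (−0.35) and Plaur (0.22) are small.

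Among the falls were also immunoglobulin heavy chain V regions, the part of the antibody that binds antigen. The sequences of 3 probes, all on the reverse strand of chromosome 12 in mm7, are shown because 2 of them share a stretch. Capitals mark the 25 bases that L20961 and ENSMUST00000095369 share, and the M19903 probe has none of it.
L20961 probe, chr12:111555238-111555297: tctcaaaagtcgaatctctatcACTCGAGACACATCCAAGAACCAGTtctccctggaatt
ENSMUST00000095369 probe, chr12:111843790-111843849: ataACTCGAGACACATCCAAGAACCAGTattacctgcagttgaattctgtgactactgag
M19903 probe, chr12:112168065-112168124: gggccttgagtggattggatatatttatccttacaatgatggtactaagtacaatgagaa
L20961, a rearranged heavy chain, read −3.03, −2.90 and −2.77 on the fl/fl arrays and 0.49, 0.32 and 0.92 on the controls (11.1-fold lower, adjusted p 2.63e-05). ENSMUST00000095369, which resembles the V region of the M315 antibody, read −3.05, −2.59 and −2.53 against 0.22, −0.13 and 0.68 (7.90-fold lower, adjusted p 0.000236). At neither did the genotypes differ past the test after LPS (log2 −0.31 and −0.22, adjusted p 0.327 and 0.564), with interaction adjusted p of 0.00271 and 0.0113. No other probe on the array carries the shared 25 bases, but related V genes can bind the same probe, so the 2 probes are not independent and their gene assignment is uncertain. At M19903, a rearranged gamma chain whose probe was picked after its value was seen, the log2 difference was −2.61 (adjusted p 0.000239 over all probes). Of 60 heavy chain probes found by their descriptions after the values were seen, 11 were lower and none higher, with a median log2 difference of −0.10. Over all genes, counted by gene and not by probe, 4.17% were lower. Related V genes can bind the same probe, so the 11 may not be separate observations. Of 36 kappa chain probes 1 was higher and none lower (median 0.16), and it is 1 of 4 kappa V-III probes, grouped after the values were seen, whose differences ran from 0.77 to 0.99. The other 3 did not pass.

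Marginal zone B cell genes fell together. Of 12 tested, 9 were lower, or 75% where 4.17% of all genes were, and none higher. All 12 had a negative difference, with a median of −1.84 against 0.05 for all genes. The list was chosen with earlier results of these data known, so these counts are a description only. Besides Cr2 and S1pr3, Dtx1, a Notch target that encodes a ubiquitin ligase, read 4.96, 4.86 and 4.69 against 6.03, 5.80 and 6.04 (2.18-fold lower, adjusted p 0.00388). Mzb1, which helps antibody assembly in the endoplasmic reticulum, read 3.68, 3.01 and 3.57 against 5.41, 5.07 and 5.38 (3.64-fold lower, adjusted p 0.00505). Asb2, which directs a ubiquitin ligase to its substrates, fell 4.62-fold. Dph5, which takes part in making diphthamide on elongation factor 2, fell 2.19-fold. Cd1d1, which presents lipids and is high on marginal zone cells, did not pass (log2 −0.30, adjusted p 0.191), nor did Cd9 (−0.10, adjusted p 0.836), both named after their values were seen. The median difference within each slide was −1.49, −1.51 and −1.63. Fewer cells of a type and less RNA per cell cannot be told apart in such bulk samples, and the part of the sorting gate in this result was not tested. Without resting +/fl replicates 1 and 3 there were 4 calls, all lower, and the median was −1.39.

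Of 32 members of the Notch pathway 3 fell and 3 rose, and the median was 0.11. Calls made up 18.8% of the list, against 8.81% of all genes. The 3 that fell are targets of the pathway, Dtx1, Hes5 and Hes1. Hes5, a repressor of the HES family, read −0.39, −0.77 and −0.53 against 1.05, 0.81 and 0.88 (2.78-fold lower, adjusted p 0.00374), and its relative Hes1 fell 5.41-fold (adjusted p 0.044). The 3 that rose act upstream of or with the receptor. Notch2, the receptor needed for marginal zone cells, rose 1.44-fold (3.70, 3.48 and 3.55 against 3.07, 3.12 and 2.97, adjusted p 0.0134). Lfng, a glycosyltransferase that tunes Notch for its ligands, rose 1.84-fold, and the coactivator Maml1 1.36-fold.

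Of 40 B-lineage transcription factors 8 rose and none fell, with a median log2 difference of 0.26. That is 20% of the list, where 4.64% of all genes rose. Bcl6, a repressor that germinal centre B cells need, read 6.16, 5.67 and 5.52 on the fl/fl arrays against 4.14, 4.76 and 4.66 on the controls (2.40-fold higher, adjusted p 0.0149). Klf3, a transcriptional repressor of the Krüppel-like family, averaged 1.44 ± 0.06 against 0.28 ± 0.40 (SD, n = 3 each), which was 2.23-fold higher (limma adjusted p 0.0226). Neither gene overlapped between the genotypes. Ikzf3, which encodes Aiolos, rose 1.67-fold, the ETS factor Fli1 1.74-fold and Zbtb7a 1.49-fold. Pax5, the partner of Ebf1 in B cell identity, did not pass (2.96 against 2.85, adjusted p 0.851), nor did Foxo1 (4.58 against 4.13, adjusted p 0.0846), both named after their values were seen. With the median in place of the 75th percentile none of the 40 passed (median 0.29), and none did without resting +/fl replicates 1 and 3 (median 0.25) or without fl/fl replicate 1 alone (median 0.21). Without +/fl replicate 1 there were 1 higher and 1 lower call, and without +/fl replicate 3 there were 3 higher. The 8 include Ebf1 at its brighter probe.

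Genes of the B cell receptor complex and its co-receptors were split, with 4 of 31 lower, 1 higher and a median of −0.16. Calls made up 16.1% of these 31, against 8.81% of all genes. Cd79a, the signalling chain Ig-alpha, read 0.55, 0.79 and 0.76 against 1.23, 1.44 and 1.68 (1.68-fold lower, adjusted p 0.0232), with no overlap between the genotypes. Cd79b, its partner chain, was level at 7.96 in both genotypes (adjusted p 0.995), and was named after its value was seen. Cd24a, a surface glycoprotein high on immature B cells, fell 2.31-fold, and Cd55, which restrains complement, rose 1.80-fold. Of 44 signalling enzymes and adaptors 6.82% passed, below the 8.81% of all genes. The Src kinase Fgr (2.85-fold) and the adaptor Nck2 (1.99-fold) rose and the adaptor Lat2 fell (1.47-fold).

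Of 22 integrins and adhesion molecules 8 rose and none fell, with a median of 0.14. The 8 are 36.4% of the list, where 4.64% of all genes rose. With median scaling, or without resting +/fl replicates 1 and 3, 1 was higher (medians 0.17 and 0.28). Without fl/fl replicate 1, +/fl replicate 1 or +/fl replicate 3 in turn, 4, 4 and 5 were higher. Itgb7, the integrin chain that takes lymphocytes to the gut, read 6.43, 6.34 and 6.49 on the fl/fl arrays against 5.49, 5.78 and 5.74 on the controls (1.68-fold higher, adjusted p 0.00884). Spn, the sialoglycoprotein CD43 that most resting B-2 cells lack, read 4.74, 4.62 and 4.61 against 3.55, 3.18 and 3.54 (2.35-fold higher, adjusted p 0.00262). Spn was higher after LPS too (log2 1.33, adjusted p 0.00524). The integrin chain Itgb3 rose 2.93-fold and Alcam, a cell adhesion receptor, 1.75-fold. Itgb3 also stands in the platelet list, of which 2 of 11 members, or 18.2%, rose.

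Of 22 receptors that position B cells 2 were higher and 2 lower, with a median of −0.01. Calls made up 18.2% of the 22, against 8.81% of all genes. Differences were positive at 11 members and negative at 11. Gpr183, which draws B cells to the outer follicle, read 5.08, 5.10 and 5.22 against 4.38, 4.57 and 4.13 (1.71-fold higher, adjusted p 0.017). Cxcr4, the signalling receptor for CXCL12, read 3.15, 2.53 and 2.02 against 0.47, 1.57 and 1.18 (2.81-fold higher, adjusted p 0.0297). The scavenger of the same ligand, Ackr3, and S1pr3 were the 2 that fell. Cxcr5 and Ccr7, the receptors for follicle and T zone, did not pass (log2 0.13 and 0.36, adjusted p 0.579 and 0.235), and were named after their values were seen.

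Of 28 genes of the BAFF and NF-kB pathway 6 rose and none fell, with a median of 0.27. The 6 are 21.4% of the list, where 4.64% of all genes rose. Bcl3, a nuclear partner of NF-kB p50 and p52, read 4.68, 4.29 and 4.62 against 3.53, 3.70 and 3.78 (1.81-fold higher, adjusted p 0.00768). Nfkbia, the inhibitor that NF-kB itself induces, rose 1.72-fold and Birc3, a ubiquitin ligase of the pathway, 1.61-fold. The adaptors Traf5, Traf6 and Traf2 rose 1.49-fold, 1.34-fold and 1.31-fold. None of the 28 passed with median scaling (median 0.30) or without resting +/fl replicates 1 and 3 (median 0.15), and 1 passed without fl/fl replicate 1, +/fl replicate 1 or +/fl replicate 3 in turn. Among JAK and STAT genes Stat4, which carries IL-12 signals, read 3.12, 3.24 and 2.94 against 2.16, 2.15 and 2.16 (1.92-fold higher, adjusted p 0.00262), and Jak2 rose 1.48-fold. Of 18 genes of MHC class II and costimulation, Pdcd1lg2, the PD-1 ligand PD-L2, rose 2.18-fold (0.34, 0.41 and 0.20 against −0.67, −0.91 and −0.85, adjusted p 0.00199). Cd80 rose 2.31-fold, with 2 of its 3 +/fl arrays above background. Calls made up 9.09% of 22 JAK, STAT, SOCS and PIM genes and 11.1% of these 18, near the 8.81% of all genes. Of 7 GIMAP GTPases, which support lymphocyte survival, Gimap3 (2.22-fold), Gimap7 (2.10-fold) and Gimap5 (1.37-fold) rose and the rest did not pass (median 0.40). These calls made up 42.9% of the 7. Of 13 B-1 cell genes Spn and Nid1, a basement membrane protein, rose (2.35-fold and 3.17-fold) and none fell, so 15.4% were called.

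Cell cycle genes fell in number, and the control arrays differed among themselves. Of 59 mitosis genes 27 were lower and 1 higher, with a median of −1.94. Calls made up 47.5% of the list, against 8.81% of all genes. Pttg1, the securin that guards sister chromatids, read 2.17, 1.89 and 1.96 on the fl/fl arrays against 3.22, 3.04 and 3.25 on the controls (2.24-fold lower, adjusted p 0.00374). Cks1b, a small partner of cyclin-dependent kinases, read −0.29, −0.65 and −0.01 against 2.12, 0.89 and 1.73 (3.73-fold lower, adjusted p 0.00903). Cks2 fell 2.35-fold, Mad2l1, of the spindle checkpoint, 2.03-fold and Ckap2, a spindle protein, 4.83-fold. Of 55 replication genes 20 were lower, or 36.4% where 4.17% of all genes were, and none higher, with a median of −0.51. Tk1, the thymidine kinase, read 0.76, 0.32 and 0.67 against 2.09, 1.78 and 2.03 (2.61-fold lower, adjusted p 0.00321), and was lower after LPS too (log2 −1.06, adjusted p 0.0202). Gins2, part of the replicative helicase, fell 3.73-fold, Chaf1b, of chromatin assembly, 2.33-fold, Gmnn, which blocks relicensing, 2.14-fold and Fen1, a flap nuclease, 1.65-fold. Of 34 genes of G1, E2F and MYC control 8 were lower, among them E2f1 (2.48-fold) and Myc (1.85-fold), and 1 higher. Calls made up 26.5% of these 34. The array medians of the mitosis list, relative to the mean of the 6 arrays, were −0.92, −1.28 and −0.63 on the fl/fl arrays and 1.21, −0.01 and 1.70 on the controls, so +/fl replicate 2 lay between the other controls and the fl/fl arrays. Without +/fl replicates 1 and 3 no mitosis, replication or G1 gene passed, and the medians were −0.86, −0.35 and −0.19. Single arrays of either genotype mattered too: without fl/fl replicate 1, +/fl replicate 1 or +/fl replicate 3 in turn, 4, 4 and 5 mitosis genes were lower, 10, 8 and 9 replication genes, and 3, 2 and 2 G1 genes. With median scaling 30 mitosis, 8 replication and 5 G1 genes were lower.

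**Figure D4:**
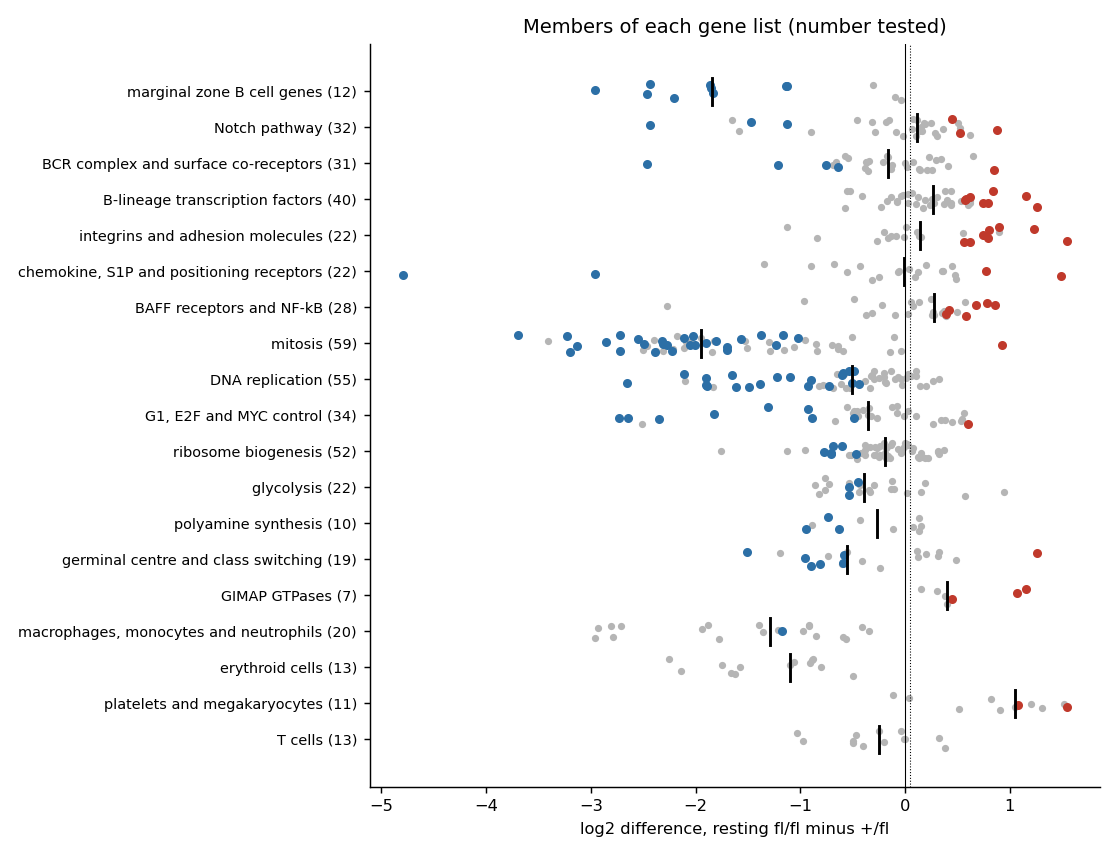
Log2 difference (resting fl/fl minus +/fl) of every tested member of 19 gene lists, with red for members higher and blue for members lower at an adjusted p under 0.05, a black bar for the list median and a dotted line for the median of all genes at 0.05. Marginal zone and mitosis genes lie mostly to the left, with medians of −1.84 and −1.94.

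Some genes of ribosome assembly, polyamine and fatty acid synthesis fell. Of 52 ribosome biogenesis genes 6 were lower, or 11.5% where 4.17% of all genes were, and none higher (median −0.19), among them the nucleolar proteins Npm1 (1.64-fold), Ncl (1.71-fold) and Fbl (1.38-fold). Of 10 polyamine genes 3, or 30%, were lower, Odc1 (3.78, 3.73 and 4.14 against 4.99, 4.60 and 4.89, 1.93-fold), Srm (1.66-fold) and Paox (1.55-fold). Odc1 and Srm make polyamines while Paox breaks them down. Scd1, the fatty acid desaturase, read 2.94, 2.93 and 2.64 against 4.63, 4.92 and 5.08 (4.11-fold lower, adjusted p 0.000262). Its paralog Scd2 fell 2.75-fold, and both were lower after LPS (log2 −0.80 and −1.17). The other 23 tested genes of cholesterol and fatty acid synthesis did not pass. Of 22 glycolysis genes 3, or 13.6%, fell and none rose. The lower calls among genes of oxidative phosphorylation (3 of 88, or 3.41%) and ribosomal proteins (2 of 78, or 2.56%) were below the share over all genes. Of 19 germinal centre and class switching genes 6 fell and Bcl6 rose, so 36.8% were called, against 8.81% of all genes. The 6 serve DNA repair or chromatin, such as Apex1, an endonuclease of base excision (1.76-fold lower).

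Survival and other signalling lists held few calls. They made up 11.8% of BCL2 family genes and 10.5% of caspases and death receptors, near the 8.81% of all genes. Of 17 BCL2 family genes, Bid, which links death receptors to mitochondria, fell 1.86-fold (1.57, 1.74 and 1.63 against 2.69, 2.53 and 2.40) and Bcl2a1b, a survival factor with near-identical paralogs that the probe may not separate, fell by 0.68 on the log2 scale. Casp2 and Ripk1 rose 1.38-fold and 1.33-fold among 19 caspases and death receptors. Rgs10, a brake on G protein signalling, fell 3.26-fold, though fl/fl replicate 1 at 1.85 stood above the other two at 0.50 and 0.80. Egr2, an immediate early factor, fell 2.01-fold. Tlr3, the sensor of double-stranded RNA, read −4.35, −3.98 and −3.86 against −1.88, −2.63 and −2.58 (3.25-fold lower, adjusted p 0.00678) in resting cells and was higher in fl/fl cells after LPS (log2 1.39, adjusted p 0.0329), and these differences were unequal (interaction adjusted p 0.0113). No interferon-stimulated gene of 26 passed (median −0.90, or 0.01 without resting +/fl replicates 1 and 3), and no regulator of alternative lineages of 14. Kit, the stem cell factor receptor, rose 2.11-fold and was the 1 precursor gene of 8 to pass, or 12.5%.

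Myeloid markers read high on the same control arrays as the cell cycle genes. All 20 tested markers of macrophages, monocytes and neutrophils had a negative difference (median −1.29), and Adgre1, the macrophage marker F4/80, was the 1 that passed (2.25-fold lower, adjusted p 0.0449). The log2 summed level of that list was 5.6, 4.8 and 5.5 on the fl/fl arrays and 7.5, 5.4 and 7.1 on the controls, so +/fl replicates 1 and 3 were high and replicate 2 was in the fl/fl range. All of its 20 tested markers were above background on all 6 arrays, those of fl/fl cells included. Within the slide that holds +/fl replicate 2 the median difference was 0.13, and within the other two −2.23 and −1.40. Erythroid markers had 13 of 13 negative differences (median −1.10) and none past the test. Their list medians were high on the same control arrays (1.12, −0.55 and 1.16), but fl/fl replicate 1 had the highest log2 summed level, 8.3 against 7.2 to 7.8 in the controls. The plasma cell list had 1 of 9 lower, Mzb1, or 11.1% where 4.17% of all genes were. T cell markers (0 of 13 called, median −0.25) and NK cell markers (0 of 9, median 0.07) held no call. Platelet markers went the other way, with 2 of 11 higher, Itgb3 and Gp1bb (2.11-fold), and a median of 1.05. The 2 are 18.2% of the list, where 4.64% of all genes rose. The platelet list medians were 1.39, 0.12 and −0.20 on the fl/fl arrays and −0.10, −0.37 and −0.93 on the controls. So fl/fl replicate 1 was the highest by far, and fl/fl replicate 3 lay below +/fl replicate 1. The part of these cells in the cell cycle result was not tested. Without +/fl replicates 1 and 3 the marginal zone median was −1.39 and the myeloid median −0.22. Those arrays were the ones high for the myeloid list, so its median was bound to move toward 0 without them. The part of myeloid cells in the marginal zone result was not tested.

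**Figure D5:**
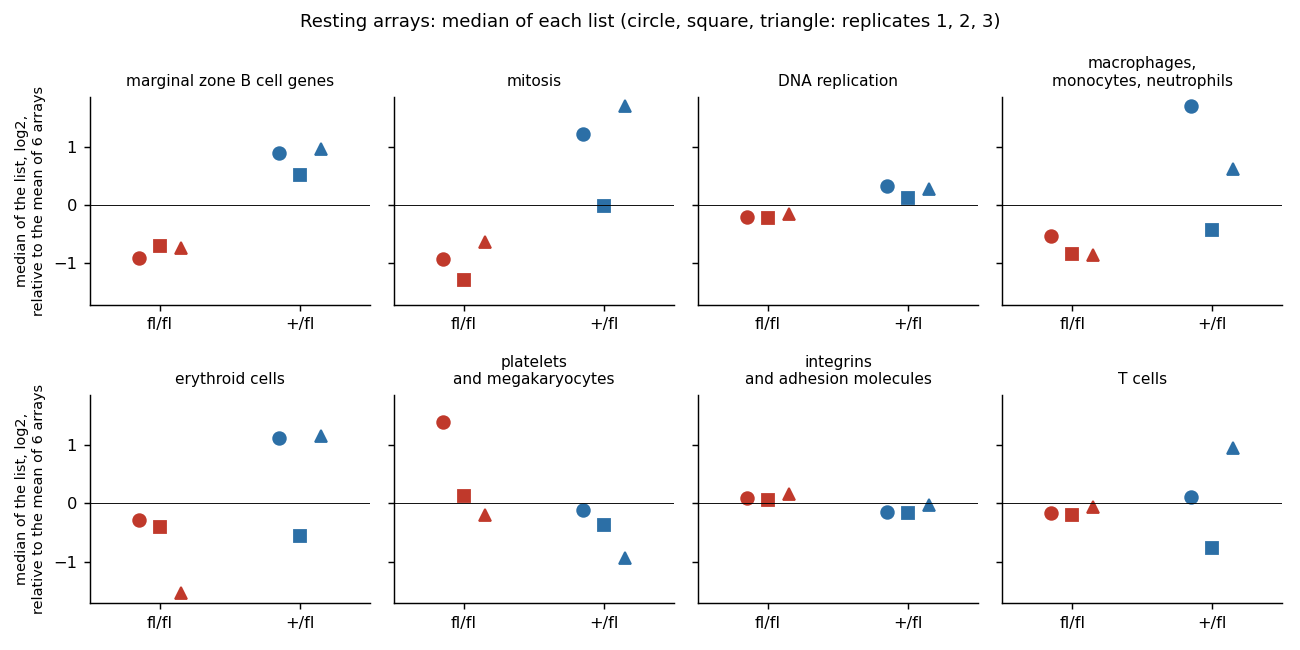
Median over the members of 8 gene lists on each resting array, in log2 units relative to the mean of the 6 arrays, with 1 point per array. Mitosis and myeloid lists read high on +/fl replicates 1 and 3 (1.21 and 1.70 for mitosis) and lower on replicate 2 (−0.01), while the marginal zone list reads high on all 3 +/fl arrays.

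Within 3 Mb of the Ebf1 probes in mm7 4 of 32 tested genes passed, Ebf1 included, or 12.5% against 8.81% of all genes, and the difference between these shares was not tested. The other 3 were Pttg1 (lower), Pwwp2a, which binds histone H2A.Z (1.72-fold higher, adjusted p 0.0103), and Rnf145, a ubiquitin ligase (1.41-fold higher, adjusted p 0.0493). On chromosome 11 as a whole 8.52% of genes were called, against 5.30% to 11.9% over the autosomes and X. On Y 2 genes were tested and 0 called.

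The promoters of called genes were searched for the palindrome that Ebf1 is known to bind, as a description only. RefSeq promoters of the GRCm38.p6 build were held for 10805 of the tested genes, and the 250 bases before the start were searched on both strands for CCCNNGGG, and for the longer form with a T before and an A after this core. The longer form was held by 1.10% of these genes, by 7 of 524 that were higher (1.34%) and by 7 of 491 that were lower (1.43%). The core, which every longer form contains, was held by 18.2% of the genes, by 23.9% of those higher and by 20.6% of those lower. Among all 32851 listed promoters, 0.779% held the longer motif and 11.8% the core. Among the called genes with the longer motif, Pold4, a subunit of the replicative polymerase delta, fell most with BC028528 (log2 −1.72 for both), and Il4i1, a secreted amino acid oxidase of activated B cells, fell by 1.68. Chaf1a, of chromatin assembly, fell by 1.65. These 3 promoters are shown, chosen after their values were seen, with the longer form in capitals, and all are on the forward strand.
Pold4 promoter, chr19:4231643-4231892: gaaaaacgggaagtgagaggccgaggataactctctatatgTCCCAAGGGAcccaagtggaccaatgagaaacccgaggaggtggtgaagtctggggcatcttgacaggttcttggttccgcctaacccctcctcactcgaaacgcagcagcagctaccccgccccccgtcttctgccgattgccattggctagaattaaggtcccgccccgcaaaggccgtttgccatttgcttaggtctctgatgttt
Il4i1 promoter, chr7:44836038-44836287: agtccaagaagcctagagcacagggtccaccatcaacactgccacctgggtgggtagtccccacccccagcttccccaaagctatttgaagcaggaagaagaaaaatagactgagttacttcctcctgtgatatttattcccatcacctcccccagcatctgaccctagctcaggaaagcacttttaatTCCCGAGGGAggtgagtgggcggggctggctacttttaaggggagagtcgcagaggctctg
Chaf1a promoter, chr17:56040166-56040415: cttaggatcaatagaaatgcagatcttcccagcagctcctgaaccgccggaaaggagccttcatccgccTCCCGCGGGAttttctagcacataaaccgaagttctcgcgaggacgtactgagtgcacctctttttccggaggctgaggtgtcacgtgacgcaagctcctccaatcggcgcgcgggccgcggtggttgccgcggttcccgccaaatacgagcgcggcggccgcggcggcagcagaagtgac
The motif starts at position −209, −61 and −181 relative to the annotated start. A match of letters is not a binding site. None of the 8 marginal zone genes with a listed promoter held the longer motif in this window. As 1.10% of tested genes with a promoter held it, 8 genes are too few to tell their share from that one.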

How the data were processed

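The deposited files are scanner output of single-colour Agilent mouse arrays, 1 per sample, made with Feature Extraction 9.5.3.1 per the file headers (9.1 per the submitters' processing notes). The processed signal is a linear intensity, background-corrected by that software per the file headers. Its log2, minus each array's 75th percentile, is the level used here. A table of linear intensity values that the authors deposited served as an alternative.

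Control spots and 87 probes with outlier marks were left out. A probe was tested if well above background on at least 3 of the 12 arrays, and the brightest tested probe stood for a gene (25678 probes, 17128 genes). Of 41174 probes, 23082 were named through an accession, 6582 through a current and 3073 through an older symbol, and 8437 kept the name in the file. Columns without a sample numbered 0.

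All 12 arrays entered 1 limma fit (limma 3.58.1, R 4.3.3), with 4 groups and Benjamini-Hochberg adjustment over all genes at 0.05. The fit was tested on simulated data. Replicate numbers did not pair the samples: deviations of same-numbered resting arrays correlated at −0.002, 0.007 and 0.126. A bound of at least N-fold sets the bright group's mean against the higher of the dim probe and the dimmest detected signal on each dim array.

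Genes named are Ebf1, genes within 3 Mb of it, the 12 largest called differences in each direction without overlap and above background on all 6 arrays, the 5 largest in each direction above background in 1 genotype alone, and of each list up to 5 members by p or all called where 6 or fewer. Exceptions are marked in the text. Some genes that the rule covers are not reported here. Members and lists were chosen with earlier results of these data known.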

Additional observations from a re-analysis of the deposited data

Results flagged for a closer look

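The genotype difference was not the same in resting and in LPS cells at 10 of the named genes and transcripts, by the interaction contrast of the limma fit adjusted over all genes. Each value is the resting minus the LPS difference on the log2 scale. For S1pr3 it was −2.612 (interaction adjusted p 0.00735), for Plaur −3.543 (0.0115) and for Nebl −2.71 (0.00278). For the heavy chain transcripts it was −3.169 at L20961 (0.00271) and −2.763 at ENSMUST00000095369 (0.0113), whose probes share a stretch of sequence. All 5 were lower in resting fl/fl cells and did not pass the test after LPS. For Lrrc23 it was 2.113 (0.0433) and for Psd3 3.036 (0.0344), both higher in resting fl/fl cells. For Jhy it was 7.763 (0.0344) and for Tsga13 −7.151 (0.0433), each in a comparison where 1 resting genotype was not above background. For Tlr3 it was −3.089 (0.0113), with fl/fl cells lower at rest and higher after LPS.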

How the results depend on the processing

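Against 1509 called genes, 281 passed with median scaling, 0 with normexp background correction, 421 with no filter on dim probes, 134 with the 6 resting arrays alone, 86 without resting +/fl replicates 1 and 3 together, where 1459 of the 1509 kept 0.5 or more of their size, 192 at an adjusted p of 0.01 and 461 at 2-fold or more. The 1459 genes that kept their size were counted on arrays that had also served to call the 1509. At 1507 of the 1509 the genotypes did not overlap, so the kept size was largely set by the selection and is not a separate test. Normexp was run on local backgrounds that held 7, 1, 19 and 16 outlying spots on 4 arrays. With these repaired 1649 genes passed. Leaving out 1 array gave 503 (resting fl/fl replicate 1) to 1662 (LPS fl/fl replicate 2). It gave 598 without resting +/fl replicate 1 and 746 without replicate 3, 982 without resting fl/fl replicate 3, 883 without LPS fl/fl replicate 1, and 941 and 987 without LPS +/fl replicates 1 and 3. The replicate block, on numbers that do not pair the samples (not every array correlated best with its own number), gave 725. Of 154 calls among list members, median scaling left 66, normexp 0, no filter 59, the resting arrays alone 20, the replicate block 77 and the fit without both control arrays 19. The trend and robust options gave 235, and leaving out 1 array 60 to 184.

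The NM_007897 probe of Ebf1 missed the threshold at 0.6536 with median scaling, 0.5022 with normexp, 0.3392 without both control arrays, and an unchanged 0.6239 with no filter, the resting arrays alone, the slide as a fixed block or the replicate block, and ran from 0.4449 to 0.7662 with 1 array left out. The AK036716 probe missed it at −1.828 (quantile), −0.4937 and −0.6326 (normexp, repaired normexp), −1.919 (deposited values), −1.993 (array weights), −2.312 (without both control arrays) and an unchanged −1.898 under the 4 settings just named, and ran from −2.183 to −1.635. The mean over its probes turned Ebf1 to −0.6371 (adjusted p 0.177). The cause of these changes was not tested. Among the 140 called genes that the naming rule covers, no other changed sign. The number of arrays limits the precision.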

Other observations

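Single resting arrays departed from the others of their genotype at some genes, counted after the values were seen. In 201 cases 1 resting array lay at least 3 log2 units beyond both others of its genotype, which lay within 1 unit of each other. In 30 of these the brighter side was above the array's 75th percentile, and the rest were dimmer. Of the 201, 66 were on +/fl replicate 2, 49 on fl/fl replicate 1 and 37 on +/fl replicate 1. On +/fl replicate 1 the immediate early genes Fos and Dusp1 were low, Fos at −1.46 where the mean of the other two was 3.57 and Dusp1 at −1.05 against 3.19, and Klf4 was at 0.98 against 4.41. On +/fl replicate 2 the neutrophil genes S100a8 and S100a9 were below the other controls and within 1 unit of the fl/fl mean. Trim12a read 4.93, −6.62 and −5.38 on the fl/fl arrays against 4.71, 5.68 and 5.34 (limma adjusted p 0.14), so 1 fl/fl array was at the control level and the other two were far below it.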
